A study of Drosophila pseudoobscura with 29 samples.

Results

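The comparison set embryos of the fly Drosophila pseudoobscura aged 15-18 h after egg laying against embryos aged 12-15 h, and asked which genes and promoters changed activity across the 15 h mark of embryogenesis. Its members were chosen by collection time alone: the libraries of the 15-16, 16-17 and 17-18 h windows stood on the later side, and those of the 12-13, 13-14 and 14-15 h windows on the earlier side, 6 of the 29 libraries of the series. The series followed embryogenesis from 0 to 29 h with 1 library for each window of 1 hour. Every library came from whole embryos of the wild-type reference genome strain, laid in population cages, left to age and frozen, with no mutation, transgene or treatment in either group. The 3 windows of a side were not biological replicates but neighbouring ages, so the spread of a side held both technical scatter and the change within its 3 hours, and p-values measured a difference against that mixed spread. Samples carried their own barcodes from cDNA synthesis on and shared the later steps and a sequencing lane, so no batch other than the barcode is known.

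Promoter activity was profiled by RAMPAGE, which keeps only cDNA that reaches the capped 5′ end of its RNA, so that a read begins where transcription began. Reads were grouped by the authors into transcription start site clusters (TSCs), each of which stands for a promoter, and expression was given in RPM, the reads of a feature scaled to a common library total. In embryos of the related fly Drosophila melanogaster, these hours take in the end of organ formation and the start of terminal differentiation. The epidermis then begins to secrete cuticle, and muscles and neurons take on their specialised proteins. The study aligned the series of its other species to that of D. melanogaster. The hours used here were not aligned, so the stages they hold may differ. Fly promoters are known to differ in shape: narrow ones, which start within a few bases, are often those of genes used in particular tissues or stages, while broad ones are often those of genes used in most cells. The genes carried FlyBase identifiers only, which no table at hand paired with symbols, so the defining genes of muscle, nerve or epidermis could not be looked up and no role is given for any gene below. In whole embryos, fewer cells of a type and less RNA per cell cannot be told apart.

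The libraries held 3256062, 7108790 and 1283508 reads in TSCs at 15-16, 16-17 and 17-18 h, and 1131265, 4701930 and 1345526 reads at 12-13, 13-14 and 14-15 h. A single read was worth 0.141 to 0.884 RPM and between 16875 and 23228 TSCs were detected per library. The deepest and the shallowest libraries of each side overlapped those of the other in depth. The strongest TSC of a library took 8.24% of the reads at 15-16 h and 2.91% to 4.27% in the other 5 libraries. Over TSCs, the Pearson correlation of log2(RPM + 1) between libraries ran between 0.819 for 17-18 against 12-13 h and 0.970 for 16-17 against 15-16 h. TSCs are not independent replicates, so these values describe the libraries.

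At the gene level 76 of 7898 genes tested (0.962%) were higher at 15-18 h and 9 (0.114%) were lower, by limma on log2(RPM + 1) with a Benjamini-Hochberg adjusted p under 0.05. At the promoter level 366 of 19794 TSCs (1.85%) were higher and 66 (0.333%) were lower by the same test. The called changes were large. Their median log2 change was 2.59 in the higher genes (1.14 to 4.31) and -1.63 in the lower ones (-3.78 to -1.21), beside -0.09 over all genes tested. In TSCs the medians were 2.43 (1.13 to 4.52) and -1.99 (-3.80 to -1.07), beside -0.12 over all TSCs tested. Rises thus outnumbered falls among the called, whereas in ranks alone the sides were nearly even: all 3 windows of 15-18 h lay above all 3 of 12-15 h in 1199 genes (15.2%) and below them in 1400 (17.7%), and in 2468 TSCs (12.5%) above and 2849 (14.4%) below.

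The calls sat close to the threshold. The adjusted p of the 85 called genes lay between 0.0493 and 0.0498, and that of the 432 called TSCs between 0.0132 and 0.0498, while 1879 genes and 3819 TSCs had an unadjusted p under 0.05. No gene was called once the 16-17, 17-18, 12-13 or 13-14 h library was left out, where 1498, 1313, 1347 and 1427 genes had an unadjusted p under 0.05, whereas 116 genes were called without the 15-16 h library and 477 without the 14-15 h library. Of TSCs, 0 were called without the 16-17 or the 17-18 h library (2938 and 2838 at an unadjusted p under 0.05), 45 without 12-13 h and 9 without 13-14 h, and 536 without 15-16 h and 858 without 14-15 h. The sign of the change stayed as reported for the called genes and TSCs in each of these fits and alternatives that tested them. Not every alternative tested them all: the filter of edgeR left 82 of the 85 genes and 395 of the 432 TSCs. The groups were separated in every called gene and TSC. Leaving out a library, or changing the pseudocount or filter, could thus not reverse a sign. A count test on the recovered reads called 173 genes with edgeR and 731 with DESeq2, and 81 and 85 of the 85 genes were among them. Of the 432 TSCs, edgeR called 278 and DESeq2 427, and 271 were called by edgeR, DESeq2 and a slope on the hour alike.

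The called promoters followed an orderly course through the neighbouring windows. The median level of the 366 higher TSCs was 24.6, 39.7 and 52.98 RPM at 15-16, 16-17 and 17-18 h, against 3.54, 6.06 and 10.4 RPM at 12-13, 13-14 and 14-15 h. The median of the 66 lower TSCs was 13.2, 9.85 and 5.84 RPM in the 3 later windows and 61.9, 47.5 and 33.1 RPM in the 3 earlier ones. Levels thus moved in the same direction within each side as between the sides. Beyond the 6 windows the higher TSCs reached a median of 65.4 RPM at 18-19 h and stood at 34.8 RPM at 21-22 h, and the lower TSCs stood at 4.43 RPM at 18-19 h. Before 12 h, the lower TSCs were already at 46.9 to 57.5 RPM from 9 to 12 h, and the higher ones at 1.46 to 2.91 RPM.

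**Figure D1:**
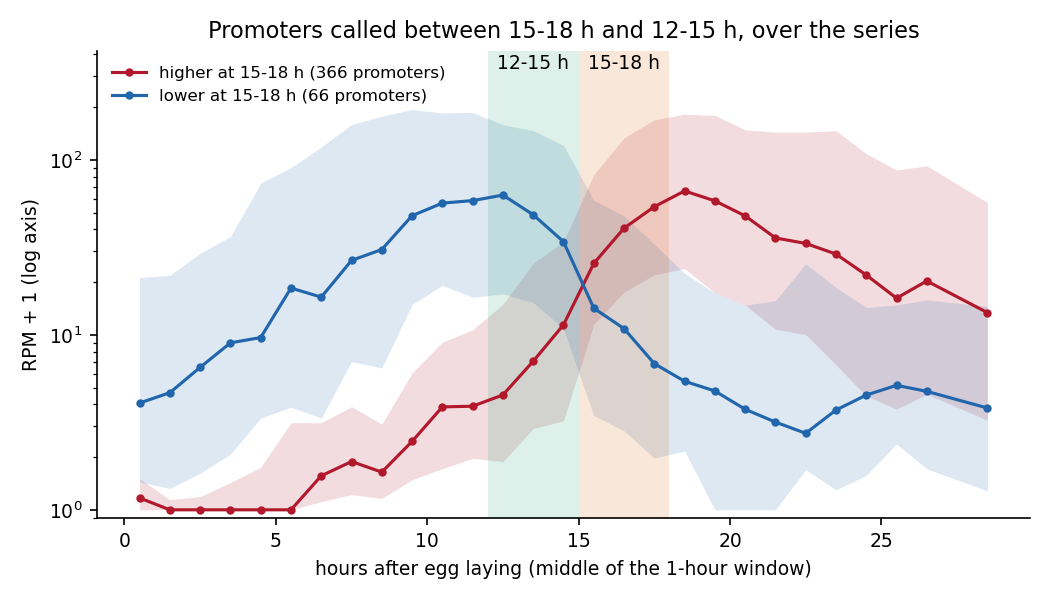
Level of the promoters called between 15-18 h and 12-15 h through the series, as RPM + 1 on a log axis against the middle of each 1-hour window (27-28 h, which held too few reads, is left out). Lines and points are medians and bands the quartiles over the 366 higher (red) and 66 lower (blue) promoters; the medians cross at the boundary of the shaded groups, as the choice of promoters sets, and the higher promoters reach their top median of 65.4 RPM at 18-19 h.

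The step across 15 h was the largest of the 5 steps between neighbouring windows. Among the higher TSCs the median log2 step was 1.31 between 15-16 and 14-15 h, and 0.67, 0.44, 0.63 and 0.37 at the steps into 13-14, 14-15, 16-17 and 17-18 h. Among the lower TSCs it was -1.28 at 15 h and between -0.34 and -0.25 at the other 4 steps. The same contrast had chosen these TSCs, so the size of the step at 15 h is a description. Over all TSCs tested the median step lay between -0.09 and 0.13 at each of the 5 boundaries. Over all TSCs with at least 10 RPM in either window of a step, the boundary at 15 h did not stand apart: 504 TSCs were higher and 567 lower by 2-fold or more at 15-16 h than at 14-15 h, 13.8% of the 7778 compared, against 9.06% between 16-17 and 15-16 h and 19.1% between 17-18 and 16-17 h.

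Most of the higher promoters had not reached their maximum by 18 h. Of the 366, 96 (26.2%) had their highest window within 15-18 h. A further 116 (31.7%) peaked from 18 to 21 h, 107 (29.2%) from 21 to 24 h, 44 (12.0%) later still and 3 before 6 h. The mean of 18-21 h was above that of 15-18 h in 241 of them (65.8%), against 33.3% of all TSCs tested. In 65 the mean at 18-21 h was at least 3 times that at 15-18 h. In 39 it was at most 1/3 of it, so a minority of the rises had fallen back by 18-21 h. The lower promoters peaked early more often than late: of the 66, 14 peaked before 6 h, then 9 by 9 h, 22 by 12 h and 16 by 15 h, while 4 peaked from 21 to 24 h and 1 later. In 7 of the 66 some window after 18 h exceeded the mean of 12-15 h. The choice of promoters barred a maximum at 12-15 h in the higher set and at 15-18 h in the lower one. Where the maxima of all TSCs tested lay was not counted, so the counts of maxima are a description.

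The choice of promoters set that the higher ones took a larger share of all reads at 15-18 h, so only its size is described. The higher promoters held 12.5%, 9.79% and 13.0% of the RPM at 15-16, 16-17 and 17-18 h, against 1.55%, 3.00% and 3.30% at 12-13, 13-14 and 14-15 h. The lower promoters held 0.94%, 0.77% and 0.58% in the later windows and 2.06%, 2.53% and 2.15% in the earlier ones. A single promoter gave much of the share at 15-16 h. It lay on the plus strand at chr3:7478524-7478650 (FlyBase r2.9, as all positions here) and gave 82412, 33464 and 42733 RPM at 15-18 h, against 7341, 16618 and 16609 RPM at 12-15 h. Its 15-16 h value was the highest of the 6, and the groups did not overlap. The mean was 52869 ± 26001 RPM at 15-18 h and 13523 ± 5353 RPM at 12-15 h (SD, n = 3 each), a log2 change of 1.95 ± 0.41 (SE) with an adjusted p of 0.0418 by limma. The call held in 1 of the 6 fits that left out a library (adjusted p 0.0300 to 0.155) and was lost with edgeR (adjusted p 0.0584). With that promoter taken out of every library, the other higher TSCs held 4.29%, 6.44% and 8.73% at 15-18 h and 0.82%, 1.34% and 1.64% at 12-15 h. The count of called TSCs then stood at 520 and that of genes at 143.

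By the rule fixed for naming genes (the largest called changes with separated groups and a mean of at least 10 RPM on the higher side), 12 rises were described of 73 that met it, and all 8 falls that met it. The largest rise was that of FBgn0037224, which gave 1235, 1535 and 4843 RPM at 15-18 h, against 75.3, 199.8 and 76.5 RPM at 12-15 h. The 17-18 h library was far above the other 5. The mean was 2537 ± 2002 RPM at 15-18 h and 117 ± 71.5 RPM at 12-15 h (SD, n = 3 each), 21.6-fold higher, and the log2 change was 4.31 ± 0.57 (SE; adjusted p = 0.0493 by limma). The rise ran on beyond 18 h, to a maximum of 17253 RPM at 19-20 h. Its reads came almost wholly (99.0%) from a single minus-strand promoter at chr2:24848808-24849010, 203 bp wide.

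FBgn0002789 rose by 3.63 ± 0.54 on the log2 scale (SE; adjusted p = 0.0493 by limma), 15.1-fold between the means. It gave 27.7, 65.99 and 85.6 RPM at 15-18 h and 1.75, 7.15 and 2.94 RPM at 12-15 h. The groups were well apart, and the level went on to 709 RPM at 23-24 h. Its reads started on the minus strand at chr3:789106-789187, 82 bp wide.

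Other named rises differed in what followed. The gene whose strongest promoter lies at chr2:15768150-15768219 (minus strand) gave 542, 889.6 and 1608 RPM at 15-18 h and 30.6, 144 and 129 RPM at 12-15 h, and its 17-18 h value was its highest in the series. The gene starting at chr2:6789764-6789789 (plus strand) gave 85.8, 156 and 158 RPM against 4.38, 10.9 and 25.8 RPM, and averaged 25.1 RPM at 18-21 h. Its 17-18 h value was its highest in the series, and no mean was taken after 21 h. The gene starting at chr3:10027690-10027701 (plus strand) gave 9.12, 15.7 and 32.4 RPM against 0, 2.31 and 0.736 RPM and had its maximum, 151 RPM, only at 28-29 h. The gene starting at chrXR_group6:239882-239910 (plus strand) gave 10.9, 14.6 and 15.4 RPM at 15-18 h, against no read at 12-13 and 13-14 h and 1.47 RPM at 14-15 h. It was at or near 0 in the earlier windows, where 3 reads would be 0.631 to 2.63 RPM. The log2 changes of the 12 named rises ran between 3.28 and 4.31. Each of the 12 was called in 2 of the 6 fits without a library, those without 15-16 h and without 14-15 h, and its adjusted p reached 0.208 without the 16-17 h library.

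**Figure D2:**
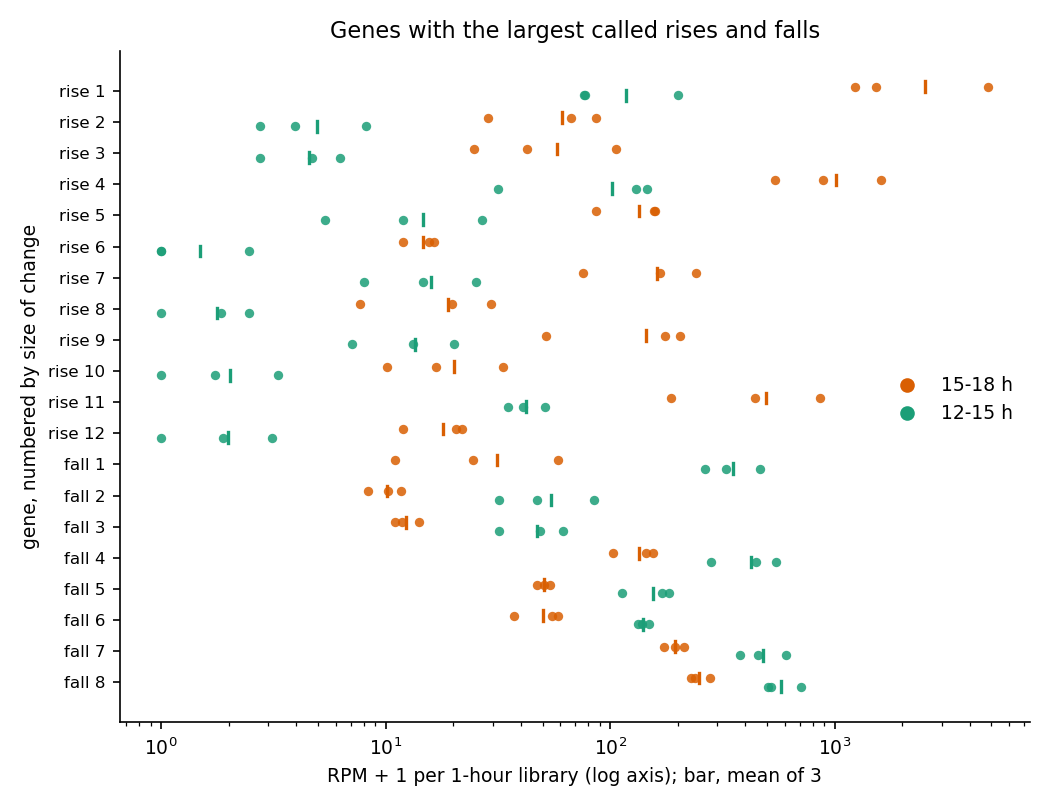
RPM + 1 on a log axis in each 1-hour library for the 12 largest called rises and the 8 called falls that met the naming rule, numbered by size of change. Points are libraries (15-18 h in orange, 12-15 h in green), bars the mean of 3; the points of the groups are separated in all 20 genes, which the rule required, and rise 1 is FBgn0037224, fall 1 FBgn0035625.

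But for the first, the 8 falls were smaller than the 12 largest rises named above. FBgn0035625 fell to 57.5, 23.5 and 10.0 RPM at 15-18 h, against 264, 466 and 328 RPM at 12-15 h. It declined from window to window on the later side. The mean was 30.3 ± 24.5 RPM at 15-18 h and 353 ± 104 RPM at 12-15 h (SD, n = 3 each), 11.6-fold lower, with a log2 change of -3.78 ± 0.55 (SE; adjusted p = 0.0493 by limma). It had been in use long before, with a maximum of 503 RPM at 4-5 h. FBgn0036627 gave 10.6, 7.38 and 9.25 RPM at 15-18 h and 84.0, 46.3 and 30.9 RPM at 12-15 h, a log2 change of -2.33 ± 0.39 (SE; adjusted p = 0.0498 by limma). It was already falling within 12-15 h and level after 15 h. Their strongest promoters lie at chrXR_group6:8013113-8013256 (minus strand) and chrXR_group8:2073271-2073342 (plus strand).

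The other 6 named falls had log2 changes of -1.90 to -1.21. The gene starting at chrXR_group8:1960433-1960466 (plus strand) gave 57.5, 54.0 and 36.2 RPM at 15-18 h and 138, 148 and 132 RPM at 12-15 h, and had averaged 35.5 RPM at 9-12 h. It was thus highest in the 3 windows before 15 h and lower on both flanks. The gene starting at chr4_group2:207597-207688 (minus strand) gave 49.6, 53.04 and 46.3 RPM at 15-18 h, against 182, 169 and 112 RPM at 12-15 h. All 8 named falls were called without the 14-15 h library, 2 of them in 1 more fit without a library, and 1 of the 8 was lost with edgeR (adjusted p = 0.0529).

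Where a called gene had several promoters, they mostly moved the same way. Of the 76 higher genes, 51 could be tied to their TSCs by reads that matched in 28 libraries and 25 could not, and 41 of the 51 had 1 tested TSC. In the other 10, which held 26 TSCs, all TSCs of a gene had a change of the same sign in 9, and 2 or more were called in 3. Of the 9 lower genes 5 could be tied, 3 to 1 TSC and 2 to several of the same sign. The reads of a tied gene were the sum over its TSCs, so agreement in sign was partly built in. The share over all tied genes was not taken, and these counts are a description.

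The same naming rule, applied to promoters after their values had been seen, brought out a pair whose highest window of 12-15 h was the last. The minus-strand promoter at chr2:4994569-4994590, 22 bp wide, gave 53.7, 130 and 288 RPM at 15-18 h and 3.54, 0.213 and 30.5 RPM at 12-15 h. Its log2 change was the largest called, 4.52 ± 0.97 (SE; adjusted p = 0.0434 by limma), but it was not called by edgeR (adjusted p = 0.115) or DESeq2 (0.113). The plus-strand promoter at chrXL_group1e:3878486-3878551 gave 124, 219 and 462 RPM at 15-18 h and 5.30, 1.91 and 71.3 RPM at 12-15 h, and was likewise not called by edgeR (0.138) or DESeq2 (0.113). In both, the 14-15 h value lay between the other 2 windows of its side and all 3 of 15-18 h. Their means at 9-12 h, 9.29 and 18.3 RPM, were above the 12-13 and 13-14 h values, and the level went on to 2788 RPM at 19-20 h and 2804 RPM at 20-21 h. The plus-strand promoter at chr3:453654-453678 climbed more evenly, with 19.96, 50.1 and 157 RPM at 15-18 h against 0.884, 2.55 and 7.43 RPM at 12-15 h. It had averaged 10.5 RPM at 9-12 h and had its maximum, 1734 RPM, at 20-21 h.

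Another strong rise had its maximum of the series at 17-18 h. The minus-strand promoter at chrXL_group3a:1572405-1572417, 13 bp wide, gave 15.7, 25.6 and 31.9 RPM at 15-18 h, against 0.884, 0.851 and 0.743 RPM at 12-15 h, and averaged 1.93 RPM at 18-21 h. Its log2 change was 3.74 ± 0.41 (SE; adjusted p = 0.0132 by limma). It was near the level of single reads before 15 h in the 12-13 and 14-15 h libraries. Among the 6 libraries it reached 1 RPM only at 15-18 h, so it was tested through the side where it was higher. By contrast the plus-strand promoter at chrXR_group6:691569-691653 gave 18.4, 29.4 and 63.9 RPM at 15-18 h and 0.884, 1.70 and 2.23 RPM at 12-15 h, and had its maximum, 4747 RPM, at 28-29 h. No TSC was called without the 16-17 or the 17-18 h library, and the adjusted p of these 5 promoters reached between 0.110 and 0.192 over the 6 fits without a library.

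Among the falls, a pair of plus-strand promoters lay close together. The promoter at chrXR_group8:4883655-4883683 gave 13.8, 3.52 and 1.56 RPM at 15-18 h and 81.3, 76.1 and 52.8 RPM at 12-15 h, a log2 change of -3.65 ± 0.55 (SE; adjusted p = 0.0203 by limma). The promoter at chrXR_group8:4885846-4885876 gave 1.84, 0 and 0.779 RPM against 9.72, 28.3 and 4.46 RPM, a log2 change of -2.80 ± 0.64 (SE; adjusted p = 0.0498 by limma; 0.0746 by edgeR). Neither had a read at 18-21 h, so both were silent in those windows at the depth of these libraries.

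Read counts bounded the changes of promoters that were silent on a side. Of the 366 higher TSCs, 4 had no read at 12-15 h and 29 had at most 3 over the 3 libraries together. The promoter at chrXL_group1e:5413715-5413742 (minus strand) had 60 reads at 15-18 h (1.54, 6.47 and 7.01 RPM) and none at 12-15 h, and that at chr2:10536619-10536632 (minus strand) had 59 (1.84, 5.77 and 9.35 RPM) and none. Set against a floor of 3 reads over the group, 0.418 RPM, they were at least 12.3-fold and 12.1-fold higher at 15-18 h. In the other direction an unassigned TSC at chr2:1965258-1965361 (minus strand) had no read at 15-18 h and 26 at 12-15 h (9.72, 2.13 and 3.72 RPM), at least 14.1-fold lower against a floor of 0.258 RPM. These floors cover counting error only. A TSC with no read on a side passed the filter of 1 RPM through the other side alone.

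Among TSCs with a mean of at least 10 RPM on a side, those that rose were narrower than those tested. The median width was 68 bp in the 317 higher TSCs (quartiles 30 and 148), 112 bp in the 55 lower TSCs (63 and 178) and 105 bp in the 8102 tested (75 and 158). At this level the difference lay at the narrow end, as the lower quartiles differed more than the upper ones. Widths were set by the authors on the pooled reads of the whole series and were larger at higher levels, and TSCs are not replicates, so the comparison has no test. Without the level limit the medians were 61, 106.5 and 70 bp. The quartiles were then 28 and 143.75 bp in the higher TSCs, against 25 and 118 bp in all tested. Of the higher TSCs 12.0% were under 20 bp wide, against 19.2% of all tested, so the contrast at the narrow end depended on the limit.

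**Figure D3:**
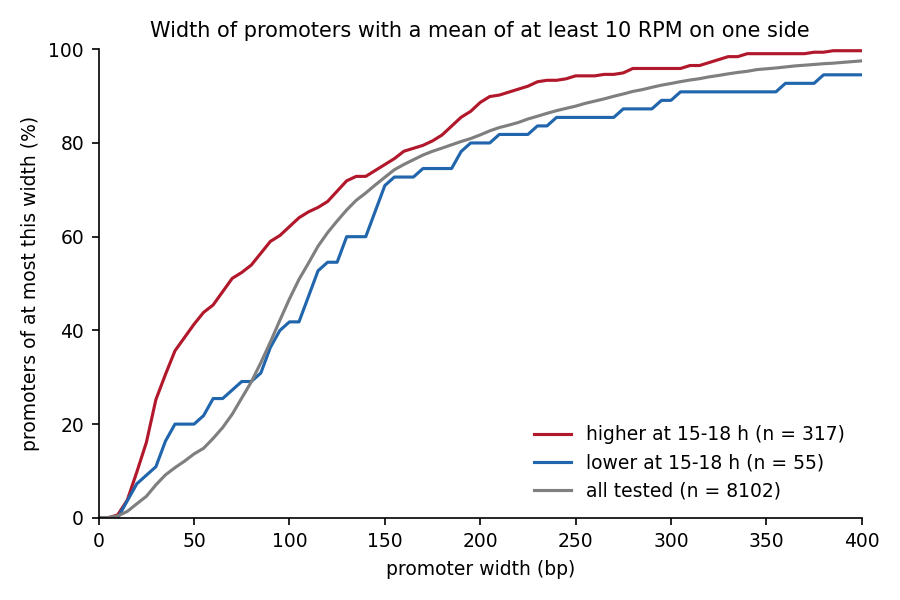
Share of promoters (%) at most as wide as the value on the horizontal axis (bp), for TSCs with a mean of at least 10 RPM on a side. The curve of the 317 higher TSCs (red) lies above that of all 8102 tested (grey) from narrow widths on, with medians of 68 and 105 bp, while that of the 55 lower TSCs (blue) has a median of 112 bp.

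The share called was larger among TSCs with a gene assigned than among TSCs without. Of 14895 gene-assigned TSCs 311 were higher (2.09%) and 55 lower (0.369%), and of 4899 unassigned TSCs 55 were higher (1.12%) and 11 lower (0.225%). The higher TSCs were spread over the chromosome arms at between 1.5% (50 of 3330) on chromosome 4 and 2.39% (109 of 4559) on chromosome 2, with 1.99% on 3, 1.67% on XL and 1.78% on XR. No arm was empty of calls, and no test was made among the arms or between assigned and unassigned TSCs. The falls ran between 0.219% on XL and 0.460% on XR.

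Of the unassigned TSCs with the largest changes, some lay near a gene promoter that changed as well. The minus-strand TSC at chr2:9805160-9805172 gave 22.4, 66.3 and 79.5 RPM at 15-18 h and 3.54, 3.83 and 4.46 RPM at 12-15 h, a log2 change of 3.35 ± 0.46 (SE; adjusted p = 0.0169 by limma). It lay 1823 bp from the plus-strand gene promoter at chr2:9806995-9807107, which gave 5000, 5443 and 7742 RPM at 15-18 h and 622, 1261 and 1014 RPM at 12-15 h, a log2 change of 2.68 (adjusted p = 0.0132 by limma). Both were high in the same windows, on opposite strands. The plus-strand TSC at chr4_group4:6362613-6362907 gave 72.5, 50.6 and 43.6 RPM at 15-18 h and 187, 149.5 and 149 RPM at 12-15 h, a log2 change of -1.55 ± 0.28 (SE; adjusted p = 0.0268 by limma). The nearest gene promoter, 4333 bp away on the minus strand, moved the other way, with 8.60, 19.98 and 28.8 RPM at 15-18 h against 0, 1.70 and 2.97 RPM at 12-15 h.

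Others stood alone. The minus-strand TSC at chr2:3508453-3508488 gave 34.1, 71.0 and 212 RPM at 15-18 h and 3.54, 3.83 and 19.3 RPM at 12-15 h, and went on to 1211 RPM at 20-21 h. Its nearest gene promoter, 8113 bp away on the same strand, gave 2.76, 3.09 and 6.23 RPM at 15-18 h and 0, 1.49 and 0.743 RPM at 12-15 h. That promoter was thus higher too at 15-18 h, but was not called (log2 change 1.56, adjusted p = 0.123 by limma). The minus-strand TSC at chrXL_group1e:10761397-10761604 gave 71.3, 56.7 and 48.3 RPM at 15-18 h against 469, 457 and 210 RPM at 12-15 h, a log2 change of -2.59 ± 0.34 (SE; adjusted p = 0.0169 by limma). The fall was a dip, not an end: this TSC averaged 350 RPM at 18-21 h and had its maximum, 4774 RPM, at 23-24 h. Its nearest gene promoter, 2874 bp away on the same strand, had 0 RPM in all 6 libraries. The 8 named unassigned TSCs were called in between 1 and 3 of the 6 fits without a library. Without the 16-17 h library none was called, and their adjusted p lay between 0.121 and 0.154. With edgeR 3 of the 8 were lost, those at chr2:3508453-3508488 (adjusted p = 0.0611), chr2:6266483-6266608 (0.0637) and chr4_group3:7846630-7846666 (0.0514).

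Some rising promoters were neighbours. Taking called TSCs no more than 20000 bp apart as a cluster if at least 3 followed each other, the 361 distinct higher intervals held 10 clusters with 35 TSCs (9.70%), and the lower ones 1 cluster of 3. How often as many tested TSCs would lie this close was not counted, so the share has no background and is a description. Some clusters held several called TSCs of the same gene. The cluster at chr2:15743134-15768219 had 5 called TSCs of 3 genes, and all 12 TSCs tested within it had a positive log2 change, with a median of 2.33. The tested TSCs of this span summed to 1466, 3043 and 4521 RPM at 15-18 h, against 143, 430.2 and 386 RPM at 12-15 h. The cluster at chr2:24828634-24851494, which includes the promoter of FBgn0037224, had 5 called TSCs of 3 genes and 10 tested, all positive, with a median of 2.48. It summed to 1352, 1750 and 5148 RPM at 15-18 h and 83.1, 228 and 138 RPM at 12-15 h, and to 12293 RPM at 18-21 h on average. The cluster at chr2:15692941-15707435, with 4 called TSCs of which 1 was unassigned, had 6 tested, all positive, and summed to 251, 704 and 1097 RPM against 34.5, 62.3 and 126 RPM. Not every cluster was wholly positive: in that at chr3:19229511-19246934, 7 of 8 tested TSCs had a positive log2 change, with a median of 0.86. The called TSCs of a cluster were positive by its definition and raised its median, so only those not called could have differed. The median over all TSCs tested was -0.12.

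The clusters differed in their later course. That at chr2:15743134-15768219 was lower at 18-21 h (2032 RPM) than at 16-17 or 17-18 h, and so was that at chr2:9804403-9807107, which summed to 5061, 5568 and 7891 RPM at 15-18 h, to 629, 1272 and 1038 RPM at 12-15 h and to 1487 RPM at 18-21 h. Nearly all of that sum came from the gene promoter at chr2:9806995-9807107 given above, so its course is that of a single promoter. The cluster of FBgn0037224 was higher at 18-21 h than in any of the 6 windows, and there too a single promoter, at chr2:24848808-24849010, carried the sum, with 1237, 1535 and 4850 RPM at 15-18 h and 11018 RPM at 18-21 h on average. The cluster of lower TSCs, at chrXR_group6:7993564-8027666, was carried by the promoter of FBgn0035625, with 59.3, 23.8 and 10.1 RPM at 15-18 h and 273, 477 and 336 RPM at 12-15 h in all. Membership rested on the calls, which were lost without the 16-17 h or the 17-18 h library (0 TSCs called), so the number of clusters is tied to these 6 libraries.

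**Figure D4:**
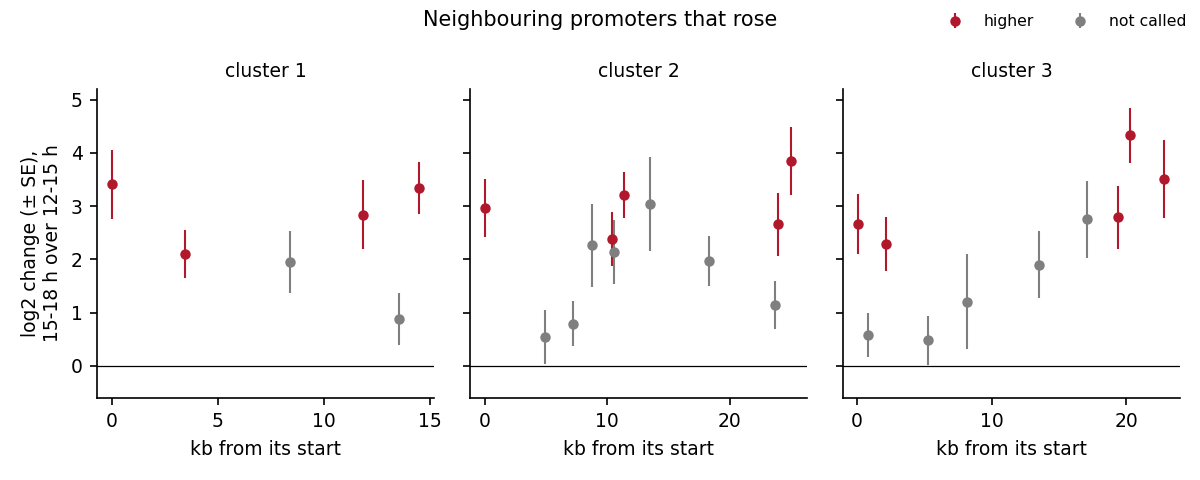
Log2 change, 15-18 h over 12-15 h, with its SE for each tested TSC of the 3 largest clusters of higher promoters, all on chromosome 2, against distance from the cluster's start (kb). Cluster 1 starts at 15692941, cluster 2 at 15743134 and cluster 3 at 24828634 bp. Red TSCs were called higher and grey ones were not called. Every point lies above 0, as do all 6, 12 and 10 TSCs tested, though the red ones had to by the choice of clusters.

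In genes with more than 1 promoter, the ratio of the 2 strongest promoters was compared between the stages in 1023 genes, and it differed in 7 (0.684%) by limma with an adjusted p under 0.05, while 202 had an unadjusted p under 0.05. Upstream and downstream refer to the direction of transcription, and a positive log2 change means more use of the upstream promoter at 15-18 h. The 6 with the largest changes are given. All 7 were lost when the 16-17 h library was left out (0 called, 142 at an unadjusted p under 0.05), and 7 of 7 held without the 14-15 h library, where 19 were called.

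In 3 of these genes the strongest promoter changed. On the minus strand of chrXR_group6, the upstream promoter at chrXR_group6:10812886-10812939 gave 74.0, 139 and 143 RPM at 15-18 h and 8.84, 4.04 and 8.92 RPM at 12-15 h. The downstream promoter at chrXR_group6:10804862-10805125, 7761 bp away, gave 12.6, 15.6 and 17.9 RPM at 15-18 h and 16.8, 23.4 and 20.8 RPM at 12-15 h. The upstream promoter rose and took over: it held 88.1 ± 2.32% of the reads of the pair at 15-18 h and 26.4 ± 10.4% at 12-15 h (SD, n = 3 each), a log2 change of the ratio of 4.24 ± 0.45 (SE; adjusted p = 0.00947 by limma). This was called in 5 of the 6 fits without a library (adjusted p 0.0760 without 16-17 h). The upstream promoter reached 10 RPM only at 15-18 h, so the pair was tested through the side where that promoter was higher. The upstream promoter had dropped by 18-21 h: it averaged 19.2 RPM there, still above its mean of 7.27 RPM at 12-15 h. The share of the pair after 18 h was not taken.

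The gene on the plus strand of chromosome 3 with promoters at chr3:8879141-8879291 and, 4726 bp downstream, chr3:8884017-8884080 changed in the same manner. Its upstream promoter gave 92.8, 102 and 108 RPM at 15-18 h and 14.1, 24.9 and 8.92 RPM at 12-15 h. Its downstream promoter gave 51.3, 43.9 and 42.9 RPM at 15-18 h and 87.5, 78.1 and 52.0 RPM at 12-15 h. The upstream share was 68.7 ± 3.80% at 15-18 h and 17.6 ± 5.73% at 12-15 h (SD, n = 3 each), with a log2 change of the ratio of 3.31 ± 0.37 (SE; adjusted p = 0.00947 by limma). It was called in 4 of the 6 fits without a library, and not without 16-17 or 12-13 h.

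In the gene on the minus strand with promoters at chrXL_group1e:12149544-12149695 and, 28396 bp downstream, chrXL_group1e:12120963-12121148, the promoters moved in opposite directions. The upstream one gave 28.6, 23.6 and 28.8 RPM at 15-18 h and 15.0, 19.1 and 11.9 RPM at 12-15 h. Its log2 change of 0.79 was not called (adjusted p = 0.199 by limma). The downstream one fell to 10.4, 9.71 and 5.45 RPM at 15-18 h, against 37.1, 36.2 and 29.0 RPM at 12-15 h. Its log2 change was larger, -1.92 (adjusted p = 0.0268 by limma). The upstream share was 76.1 ± 7.05% at 15-18 h and 30.8 ± 3.27% at 12-15 h (SD, n = 3 each; log2 change of the ratio 2.71 ± 0.38 SE, adjusted p = 0.0199 by limma). It was called in 1 of the 6 fits without a library, and not when both TSCs had only to reach 2 RPM (adjusted p = 0.0565).

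The other 3 named genes moved towards the downstream promoter, which rose in each. At chr2:12664520-12664617 and, 10127 bp downstream on the minus strand, chr2:12654306-12654393, the upstream promoter gave 60.2, 109 and 76.4 RPM at 15-18 h and 103, 118 and 84.7 RPM at 12-15 h. The downstream one gave 498, 829 and 785 RPM at 15-18 h and 138, 129.7 and 87.7 RPM at 12-15 h. The upstream share was 10.4 ± 1.42% at 15-18 h and 46.5 ± 3.39% at 12-15 h (SD, n = 3 each), a log2 change of the ratio of -2.89 ± 0.31 (SE; adjusted p = 0.00947 by limma), called in 4 of the 6 fits without a library. The gene had 9 TSCs, and the share is that of the 2 strongest alone.

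At chr2:28093925-28094072 and, 3054 bp downstream on the minus strand, chr2:28090715-28090871, the downstream promoter gave 14.4, 31.9 and 32.7 RPM at 15-18 h and 1.77, 2.98 and 1.49 RPM at 12-15 h, and the upstream share was 69.2 ± 2.84% at 15-18 h and 94.8 ± 2.23% at 12-15 h (SD, n = 3 each; log2 change of the ratio -2.57 ± 0.36 SE, adjusted p = 0.0199 by limma). The upstream promoter remained the stronger of the pair. The downstream promoter reached 10 RPM only at 15-18 h, so this pair too was tested through the side where that promoter was higher. At chr4_group5:1575268-1575358 and, 19697 bp downstream on the plus strand, chr4_group5:1595055-1595244, the downstream promoter gave 938, 1067 and 1454 RPM at 15-18 h and 218, 385 and 615 RPM at 12-15 h. There the upstream start was minor in both groups, with 0.307 ± 0.131% of the reads at 15-18 h and 2.07 ± 0.364% at 12-15 h (SD, n = 3 each; log2 change of the ratio -2.63 ± 0.38 SE, adjusted p = 0.0240 by limma). The upstream start reached 10 RPM only at 14-15 h (10.4 RPM; 4.30, 2.67 and 3.12 RPM at 15-18 h, and 5.30 and 8.51 RPM at 12-13 and 13-14 h), so the pair was tested through a single library of the side where it was higher. These 2 pairs were called in 1 and 2 of the 6 fits without a library, and neither was called when both TSCs had only to reach 2 RPM (adjusted p = 0.0565 for both).

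**Figure D5:**
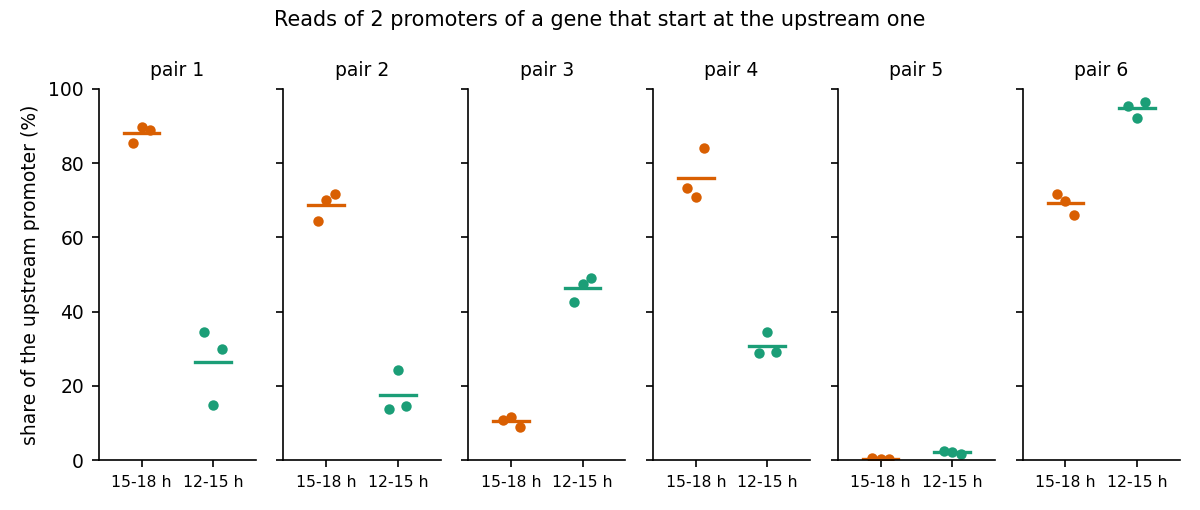
Share of the reads of a gene's 2 strongest promoters that start at the upstream one (%), in each 1-hour library, for the 6 genes with the largest called change of ratio. Points are libraries and lines the mean of 3, 15-18 h (orange) left of 12-15 h (green); the order is that of the size of change, from pair 1 (88.1% against 26.4%) to pair 6 (69.2% against 94.8%), with no overlap of the groups in any pair.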

How the data were processed

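Embryos were profiled by RAMPAGE with 5′-monophosphate RNA digested before cDNA synthesis. Per the labels and methods, STAR was used by the authors for alignment, against FlyBase release r2.9, and TSCs were called on the pooled reads of the series, so deep libraries had more say in which were called. TSCs over ribosomal DNA were removed. The deposited values are RPM, which the authors scaled per library, for 8466 genes and 26066 TSCs (18173 assigned to a gene). The gene table sums to 75.7% to 81.1% of the TSC total in the 6 libraries, so its denominator includes other reads. A deposited table of aligned z-scores and the score of the TSC intervals were not used. Every column used was mapped to a sample (0 not mapped).

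Genes and TSCs that reached 1 RPM in any of the 6 libraries were tested with limma 3.58.1 (R 4.3.3; trend, two-sided, Benjamini-Hochberg over all tested, threshold 0.05) on log2(RPM + 1), a scale that understates changes of low genes. For promoter ratios both TSCs had to reach 10 RPM. The RPM values were turned back into whole reads, of which 100% came within 0.1 of a whole number, and edgeR 4.0.16 (quasi-likelihood) and DESeq2 1.42.0 were run on them as alternatives, beside other pseudocounts (0.1 and 5 RPM), filters, scalings, a slope on the hour, all 28 libraries with enough reads in 3-hour groups, thinning to 1131265 reads and leaving out each library. Removing the strongest promoter, and counting each interval once, were chosen after the data were seen. Of the TSC entries, 227 repeat an interval listed under another gene and were kept in the fits. The tests were tried on simulated data.

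Named genes were the 12 largest called rises and falls with separated groups and a mean of at least 10 RPM on the higher side, the 6 largest called ratio changes and 4 unassigned TSCs each way. Gene rows were tied to promoters where reads agreed in 28 libraries (6591 of 8466 genes, 77.9%). Lists of genes by pathway and cell type and searches for promoter motifs were planned but not made, since 0 of 18697 FlyBase identifiers matched the RefSeq table used here (assembly UCI_Dpse_MV25) and no genome of the files' build was used. The members and lists were chosen with earlier results of these data known.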

Additional observations from a re-analysis of the deposited data

How the results depend on the processing

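The 3 windows of a side were neighbouring ages, and calls stood close to the threshold, so counts moved widely. None of the 58 named results changed sign under any alternative that tested it, though their call was lost 409 times and kept 616 times. The named genes and promoters had separated groups. A fit without a library, or with another pseudocount or filter, could thus not reverse their sign. Against 85 genes and 432 TSCs as reported, a pseudocount of 0.1 RPM called 0 genes (1819 at an unadjusted p under 0.05) and 24 TSCs, no filter 0 and 0 (1987 and 4225 unadjusted), and a filter at 10 RPM 0 and 0 (1496 and 2327 unadjusted). A pseudocount of 5 RPM called 206 genes and 490 TSCs, upper-quartile scaling 148 and 505, TMM scaling 215 and 784, a slope on the hour 1339 and 2149, all 28 libraries together 828 and 1704, edgeR 173 and 327, DESeq2 731 and 1112, and thinning to the smallest library 93 and 236. Removing the strongest promoter gave 143 genes and 520 TSCs. TMM scaling put the median change of all genes at 0.06 in place of -0.09 on the log2 scale, and of all TSCs at 0.02 in place of -0.12. The slope split its gene calls into 69.2% higher and its TSC calls into 72.7% higher, in place of 89.4% and 84.7%. Against 7 promoter ratios, 3 were called when both TSCs had only to reach 2 RPM, and 124 by the slope. Leaving out 1 library gave 0 to 477 genes, 0 to 858 TSCs and 0 to 19 ratios. The cause of these shifts was not tested. No paired analysis was possible because the window numbers 1 to 3 of a group only give its order in time and pair no samples. The planned gene lists, marker checks and motif searches were not run. In libraries of 1131265 to 7108790 reads, 3 reads were 0.422 to 2.65 RPM, and TSCs below that could not be told from absent.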
